A study of Mus musculus with 6 samples.

Results

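Histone genes encode the proteins around which DNA is wound, and 45 of the 19938 genes measured here carry a histone name. They were chosen by symbol (names beginning with H1f, H2a, H2b, H3 or H4 in the histone style, or the older Hist1 to Hist4 style), from probe sets that the platform annotation gives exactly 1 gene symbol. Where a gene had more than 1 such probe set, the one with the highest mean over the 6 arrays stood for it. The family was picked with the knockout against wild-type differences already known, so those differences, and the calls made from them, are given as a description and not as evidence about the family.

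RNA was measured in BCR-ABL1 transformed mouse pre-B cells; BCR-ABL1 is a constantly active tyrosine kinase that drives a form of acute lymphoblastic leukaemia (ALL). The labels give 3 arrays of Dusp6 WT cells and 3 of Dusp6 KO cells. Both groups carry BCR-ABL1, both are described as BCR-ABL1-driven ALL, and both have the mixed strain C57Bl/6-SV129j. Dusp6 is the cytoplasmic phosphatase that switches off ERK, and the genotypes were compared to see how the leukaemia cells' transcripts differ when it is missing. The sources used here do not give the vector for BCR-ABL1, the deleted part of Dusp6, the age or sex of the mice, or the mouse and culture behind each array. The calls below therefore measure only the spread between these arrays, which may be technical.

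Histones come in 5 classes. H2A, H2B, H3 and H4 form the core particle, and H1 binds the linker DNA between particles. Most of their genes are replication-dependent: they sit in clusters, are transcribed mainly during S phase when new DNA is packaged, and make transcripts that end in a stem-loop in place of a poly(A) tail. Replacement variants are made through the whole cell cycle from genes outside the clusters, and further variants belong to testis and oocyte. Dividing B cell precursors need a steady supply of the first kind. Of the 45 genes, 28 were counted as replication-dependent, 6 as replacement variants and 11 as germ-cell genes.

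The promoters of 6 replication-dependent genes are shown because they belong to members with a call in the comparison below and carry different sets of the short elements known from histone promoters. Each is the stretch of 150 bases just before the annotated transcription start, 5′ to 3′ on the strand of the gene, from RefSeq on build GRCm38.p6. Capitals mark the CCAAT box (CCAAT), the TATA box (TATAAA), the octamer bound by POU factors (ATTTGCAT) and the core of the H1 box (AAACACAA), each on either strand.
H3c15 (chr3:96239128-96239277, minus strand): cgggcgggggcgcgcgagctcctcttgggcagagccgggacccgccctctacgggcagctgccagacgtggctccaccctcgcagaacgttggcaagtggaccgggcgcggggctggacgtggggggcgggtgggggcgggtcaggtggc
H4c3 (chr13:23698459-23698608, minus strand): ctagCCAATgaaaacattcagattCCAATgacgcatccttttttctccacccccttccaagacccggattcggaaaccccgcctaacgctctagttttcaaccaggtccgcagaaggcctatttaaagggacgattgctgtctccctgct
H1f1 (chr13:23763518-23763667, plus strand): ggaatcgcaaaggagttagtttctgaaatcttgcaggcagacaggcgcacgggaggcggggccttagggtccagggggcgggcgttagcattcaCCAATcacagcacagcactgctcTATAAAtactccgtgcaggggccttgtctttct
H1f2 (chr13:23738657-23738806, plus strand): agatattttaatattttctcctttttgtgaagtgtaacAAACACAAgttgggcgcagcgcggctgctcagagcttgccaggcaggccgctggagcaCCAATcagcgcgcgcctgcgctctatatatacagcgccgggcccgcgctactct
H2ac4 (chr13:23750938-23751087, plus strand): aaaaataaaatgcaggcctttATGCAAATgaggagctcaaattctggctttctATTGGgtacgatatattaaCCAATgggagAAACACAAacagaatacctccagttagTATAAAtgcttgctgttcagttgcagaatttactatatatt
H2bc3 (chr13:23746584-23746733, plus strand): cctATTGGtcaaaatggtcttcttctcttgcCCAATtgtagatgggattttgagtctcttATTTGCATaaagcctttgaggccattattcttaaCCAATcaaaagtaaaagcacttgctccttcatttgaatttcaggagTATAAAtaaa

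Promoters of 39 of the 45 members were matched by symbol, and the 250 bases before the start were searched. CCAAT stood in 30 of 39 (76.9%), against 33.8% of all 32851 promoters in the table. TATAAA stood in 16 (41%, against 12.4%), ATTTGCAT in 9 (23.1%, against 1.6%) and AAACACAA in 6 (15.4%, against 1.67%). All 10 H2B promoters held CCAAT and 5 of them held the octamer, and none of the 8 H1, 3 H3 or 6 H4 promoters held an octamer. AAACACAA overlapped none of the other elements in the stretches printed. The printed H3c15 stretch, with a G and C content of 76.7%, held none of the 4 elements, whereas the H2ac4 stretch held all of them at a G and C content of 34%. H2bc4, H2ax, H2bu1-ps, H3c7, H2bc21 and H4c14 are not shown.

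On the arrays as a whole, log2 values ran from 3.23 to 14.83 with array medians of 8.38 to 8.42, and arrays of 1 genotype correlated at 0.996 to 0.998, above the 0.987 to 0.989 between genotypes. Dusp6 read 12.36, 12.46 and 12.49 on the wild-type arrays and 9.04, 9.06 and 9.15 on the knockout arrays (log2 difference −3.36 ± 0.052), which matches the labels. All 11 measured B cell precursor markers lay above the median gene, and their summed linear signal was 111000 to 112000 in wild type and 101000 to 103000 in knockout. Of those 11, Dntt (−1.42), Rag2 (−0.44), Il7r (−0.31), Vpreb1 and Blnk fell and Rag1 (0.20) rose. Markers of other cell types lay low: 1 of 10 myeloid, 0 of 10 T and NK cell, 1 of 7 erythroid and megakaryocyte and 3 of 10 stromal markers exceeded the median gene. The summed myeloid signal was 2300 to 2370 in wild type and 2630 to 2720 in knockout, with Lyz2 (log2 difference 0.70) as the called member. For T and NK cells the sums were 1760 to 1830 and 1810 to 1880, with Cd8b1 (0.23) higher and Zap70 (−0.15) lower. Erythroid sums were 1520 to 1630 and 1510 to 1540, and stromal sums 2880 to 2900 and 2870 to 2980, with no call in either list. The part of these shifts in the histone values was not tested.

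Histone transcripts were mostly lower in the Dusp6 knockout cells, by small amounts. A gene is called here when the limma fit over all genes gave it a Benjamini-Hochberg adjusted p under 0.05, and "fell" and "rose" are used for called genes. Of 45 histone genes 20 fell, where 10.2% of all genes tested fell, and 1 rose, where 9.66% of all genes rose (19.8% of all genes were called in either direction). No filter on low signal was used, so all 45 were tested. The median log2 difference (knockout minus wild type) was −0.15 over the 45 and 0.002 over all genes. Differences lay below 0 in 36 of the 45 genes (80%) and in 49.2% of all genes. In 30 histone genes all 3 knockout values lay under all 3 wild-type values, which held for 18.4% of all genes; the reverse held for 2 histone genes and for 17.3% of all genes. Since the family was chosen with this contrast known, nothing is read from these shares. Without wild-type replicate 1 the number that fell was 12, and with any other array left out it was 16 to 20. Within wild type, replicate 1 was the highest array in 25 of the 45 genes and replicate 3 the lowest in 29; within knockout, replicate 1 was the highest in 23 and replicate 2 the lowest in 22. The part of this ordering in the calls was not tested.

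**Figure D1:**
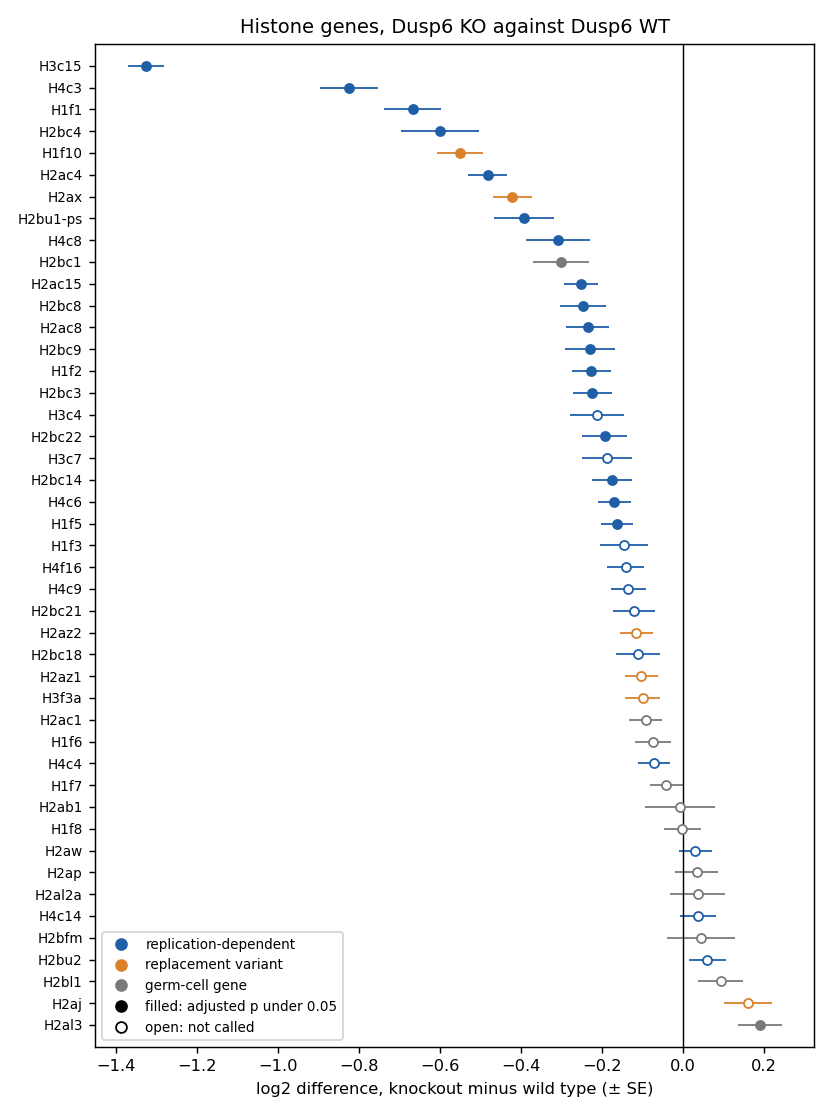
Log2 difference, knockout minus wild type, with its standard error for each of the 45 histone genes, ordered by size and coloured by kind; filled points were called. H3c15 lies farthest left at −1.33, and H2al3 farthest right at 0.19.

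The replication-dependent genes carried most of the calls. Of 28, 17 (60.7%) fell and 0 rose at the threshold, 25 (89.3%) lay below 0 and the median was −0.20. Over all genes 10.2% fell and 49.2% lay below 0. Over the 3 knockout arrays their median shift from the wild-type mean was −0.16, −0.21 and −0.22, and over the wild-type arrays 0.043, −0.007 and −0.043. The knockout arrays thus lay below each wild-type array in this summary. In bulk RNA, fewer cells in S phase and less histone RNA per cell cannot be told apart.

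H3c15, a gene of the small chromosome 3 cluster that encodes a replication-dependent H3, had the largest difference. It read 10.8, 10.74 and 10.75 in wild type and 9.48, 9.44 and 9.38 in knockout. The groups were far apart beside the spread within either genotype. The log2 difference was −1.33 ± 0.045 (SE), or 2.51-fold lower, and it was the only member past 2-fold, a size reached downward by 0.507% of all genes. None of its 3 measured cluster neighbours was called. H4c14 read 13.57, 13.51 and 13.47 in wild type and 13.55, 13.53 and 13.59 in knockout, so the groups overlapped. The H2B genes H2bc18 (log2 difference −0.11 ± 0.054) and H2bc21 (−0.12 ± 0.052) were not called.

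The other 2 measured H3 genes of the replication-dependent kind lie on chromosome 13. H3c4 had a log2 difference of −0.21 ± 0.067 and H3c7 one of −0.19 ± 0.061, and neither passed the threshold. The groups of H3c4 overlapped and those of H3c7 did not. The signal of H3c7 (6.27 to 6.46 in the genotype means) was low, and it was not tested against background.

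Among 7 H4 genes, 3 fell, where 10.2% of all genes did. H4c3 read 11.76, 11.81 and 11.71 in wild type and 10.76, 10.98 and 11.05 in knockout. Every knockout value was lower than every wild-type value, and the knockout arrays spread more (SD 0.151) than the wild-type arrays (SD 0.05). The log2 difference was −0.82 ± 0.072, or 1.77-fold. H4c8 fell by 0.31 and H4c6 fell by 0.17. H4c9 (−0.14 ± 0.044), H4f16 on chromosome 6 (−0.14 ± 0.045) and H4c4 (−0.07 ± 0.040) were not called, although their groups did not overlap. With trend and robust options H4c4 passed, whereas under repeated quantile normalization its difference was −0.005. All H4 genes encode the same or nearly the same protein, and their transcripts are alike, so signal of 1 copy on the probes of another cannot be separated here. Without wild-type replicate 1 or 2 H4c8 lost its call (differences −0.30 and −0.27), and without wild-type replicate 1 or 3 H4c6 did (−0.16 in both).

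**Figure D2:**
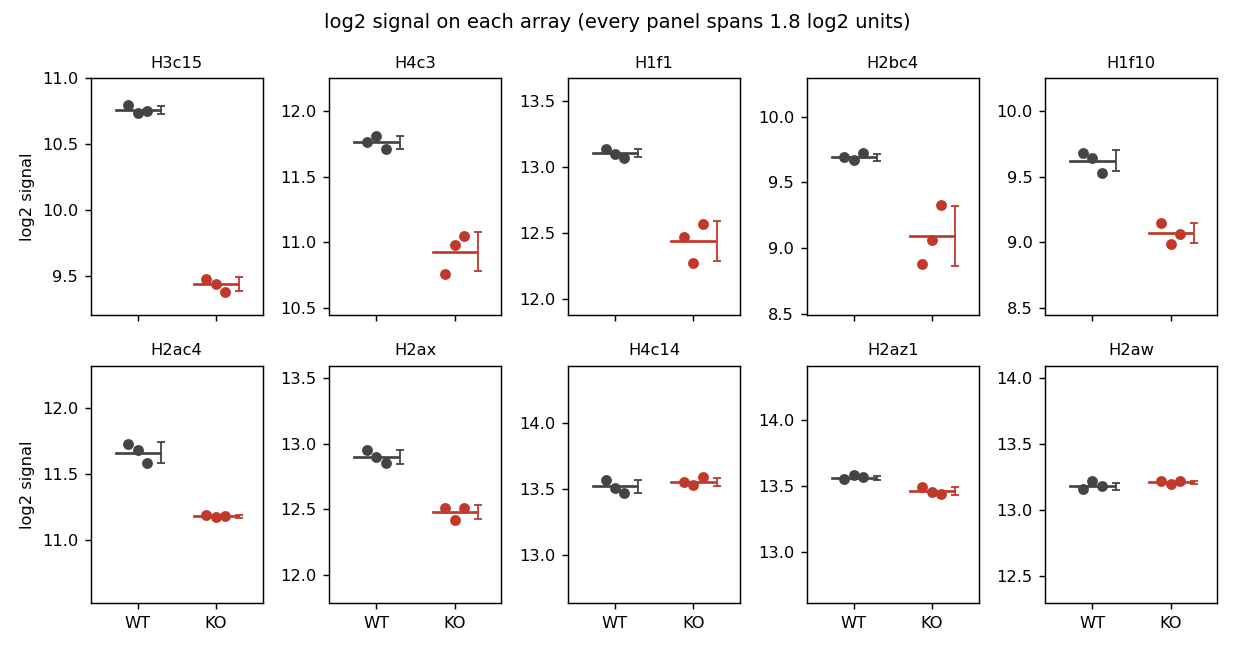
Log2 signal on each array for 10 histone genes, with points for the 3 wild-type and 3 knockout arrays, lines for the means and bars for the SD (n = 3); every panel spans the same number of log2 units. The groups are apart in H3c15, H4c3, H1f1, H2bc4, H1f10, H2ac4, H2ax and H2az1 and overlap in H4c14 and H2aw.

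Linker histone genes fell in 3 of the 4 replication-dependent cases, beside 10.2% of all genes. H1f1 read 13.14, 13.1 and 13.07 in wild type and 12.47, 12.27 and 12.57 in knockout, a log2 difference of −0.67 ± 0.071 (1.59-fold). The lowest wild-type array was above the highest knockout array, and the knockout arrays spread more (SD 0.152) than the wild-type arrays (SD 0.0314). H1f2 fell by 0.23, from a mean of 11.42 ± 0.074 (SD, n = 3) to 11.2 ± 0.019. H1f5 fell by 0.16, from 13.47 to 13.3, but it lost its call without wild-type replicate 1 or 2 or knockout replicate 2 (−0.17 to −0.15), and in the fit with the replicate number as a block. H1f3 had a log2 difference of −0.15 ± 0.060 and was not called. H1f4, which encodes a further somatic linker histone, shares its probe set with H2bc6; that probe set read 10.69, 10.59 and 10.54 in wild type and 10.46, 10.34 and 10.4 in knockout.

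In the H2A class 3 of 4 replication-dependent genes fell, where 10.2% of all genes did. H2ac4 read 11.73, 11.68 and 11.58 in wild type and 11.19, 11.17 and 11.18 in knockout (log2 difference −0.48 ± 0.049). Its knockout arrays were nearly equal. H2ac15 read 13.98, 13.98 and 13.95 against 13.75, 13.73 and 13.68 (−0.25 ± 0.041). H2ac8 fell by 0.24. H2aw, on chromosome 11, was not called and its groups overlapped: it read 13.16, 13.22 and 13.18 in wild type and 13.22, 13.2 and 13.22 in knockout (difference 0.03 ± 0.040).

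The H2B class had 7 calls among 10 replication-dependent genes, all downward, beside 10.2% of all genes that fell. H2bc4 read 9.69, 9.67 and 9.72 in wild type and 8.88, 9.06 and 9.33 in knockout (log2 difference −0.60 ± 0.096). Its knockout arrays spread widely (SD 0.228, against 0.0278 in wild type), but the highest of them still lay under the lowest wild-type array. H2bu1-ps, annotated as a transcribed pseudogene on chromosome 11, fell by 0.39. H2bc8 fell by 0.25, H2bc9 by 0.23, H2bc3 by 0.22, H2bc22 by 0.19 and H2bc14 by 0.18. Of these, 4 lost their call in some fits that left out 1 array, with differences still below 0. H2bc8 lost its call without wild-type replicate 1 (−0.21). H2bc9 and H2bc14 kept theirs only when wild-type replicate 3 or knockout replicate 1 was left out; in the fits that lost the call the difference was −0.22 to −0.18 for H2bc9 and −0.18 to −0.15 for H2bc14. H2bc22 kept its call only when wild-type replicate 3 or knockout replicate 2 was the array left out, and otherwise differed by −0.20 to −0.16. H2bu2 (0.06 ± 0.046) was not called and its groups overlapped.

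By position, all 23 measured histone genes of the chromosome 13 cluster, 3 of them germ-cell genes, lay below 0, with a median of −0.22. Of them 16 (69.6%) fell, beside 10.2% of all genes, and 21 (91.3%) were lower without overlap, beside 18.4%. Of the 4 genes of the chromosome 3 cluster 1 was called and of the 3 on chromosome 11 likewise 1. Between the chromosome 13 histone genes lie other genes, and 41 of those were measured. Among them 1 fell and 2 rose, with a median difference of −0.016. Most of these read low (median signal 5.8, against 10.38 for the cluster's histone genes), so the set is a limited comparison, and the difference between the sets was not tested. H2A and H2B genes are often paired head to head. The neighbours H2ac8 and H2bc8 fell by similar amounts (0.24 and 0.25). The nearby H2aw and H2bu1-ps differed from each other (0.03 and −0.39), as did H2ac1 and H2bc1 (−0.09 and −0.30). H2bu2, also on chromosome 11, stood at 0.06. These genes are examples, and likeness within pairs was not tested.

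Of the 6 replacement variants 2 fell (10.2% of all genes did) and 5 lay below 0 (49.2% of all genes). In 5 all knockout values lay under all wild-type values, which held for 18.4% of all genes. H2ax encodes the H2A form that is phosphorylated around DNA breaks. It read 12.95, 12.9 and 12.85 in wild type and 12.51, 12.42 and 12.51 in knockout, a log2 difference of −0.42 ± 0.048 (1.34-fold lower). H1f10, a linker variant gene on chromosome 6, read 9.68, 9.64 and 9.53 against 9.15, 8.99 and 9.06 (−0.55 ± 0.058). In both genes the groups were separated by more than the spread of either.

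H2az1 and H2az2 encode the H2A.Z variant that marks gene promoters. H2az1 had a log2 difference of −0.10 ± 0.040 and H2az2 one of −0.12 ± 0.040. Neither was called, though in both all knockout values lay under all wild-type values, and both passed once genes under the median signal were left out and with trend and robust options. H2az2 also passed without genes below the lower quartile of signal. The other probe set of H2az1 gave −0.11 ± 0.035 in a fit over all probe sets. H2aj, a replacement H2A gene, went the other way with 9.21, 9.32 and 9.36 in wild type and 9.47, 9.37 and 9.54 in knockout (0.16 ± 0.059, not called, though it passed once genes under the median signal were left out). H3f3a, a gene of the replacement H3, was not called on its single-symbol probe set (−0.10 ± 0.043). That probe set averaged 7.94 in wild type, while 4 probe sets shared by H3f3a and Gm12657 averaged 13.06 to 13.18 and differed by −0.08 to −0.06. H3f3b, the other gene for that protein, was read by 2 shared probe sets that differed by −0.008 and 0.012.

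Of the 11 germ-cell histone genes, whose products serve sperm and egg chromatin, 1 fell and 1 rose, near the 10.2% and 9.66% of all genes. Their median signal was low, at 7.62, against 11.04 for the replication-dependent genes and 8.62 for all genes. Their median difference was −0.002. H2bc1, the testis H2B gene of the chromosome 13 cluster, fell by 0.30, from a mean of 10.25 to 9.94, both above the median gene. It lost its call without wild-type replicate 1 (−0.26). Its partner H2ac1 had a difference of −0.09 ± 0.041 and was not called. H2al3, an X-linked gene, rose from 6.79, 6.88 and 6.71 to 7.02, 6.91 and 7.02 (0.19 ± 0.055); it is named because it was the single member that rose. Its call was lost without wild-type replicate 1 or 3 or knockout replicate 1 or 3 (0.15 to 0.19). H1f6, H1f7, H1f8, H2ab1, H2ap, H2al2a, H2bfm and H2bl1 lay between −0.07 and 0.09 and were not called.

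Many replication-dependent copies are too alike for a probe set of their own. In all, 47 further probe sets list a histone symbol among several. The 10 that list H3 cluster genes together, up to 12 symbols each, averaged 14.51 to 14.68 and differed by −0.11 to −0.08. The 5 for H4 averaged 14.4 to 14.58 (−0.09 to −0.06), the 7 for H2B 13.98 to 14.35 (−0.19 to −0.13) and the 2 for H2A 14.26 to 14.54 (−0.20 and −0.15). Among these, 2 of the H2B and 2 of the H4 probe sets hold identical values. In all 24 the knockout values lay under all wild-type values, which held for 16.7% of all 35556 probe sets. Of the 24, the 2 for H2A were called in the fit over all probe sets, where 11.6% were called. The probe sets of a class list many of the same genes, so the 24 are not separate readings. These probe sets lie close to the highest value of the arrays, and whether that limits the size of a difference was not tested. The probe set of H4c11 and H4c17 read 9.02, 8.9 and 8.76 in wild type and 8.59, 8.24 and 8.44 in knockout (−0.47 ± 0.11). The 12 probe sets of the testis H2al1 genes differed by −0.02 to 0.01, but they averaged 7.68 to 8.37, under the median gene (8.62). Only 10 of these 12 hold distinct values.

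**Figure D3:**
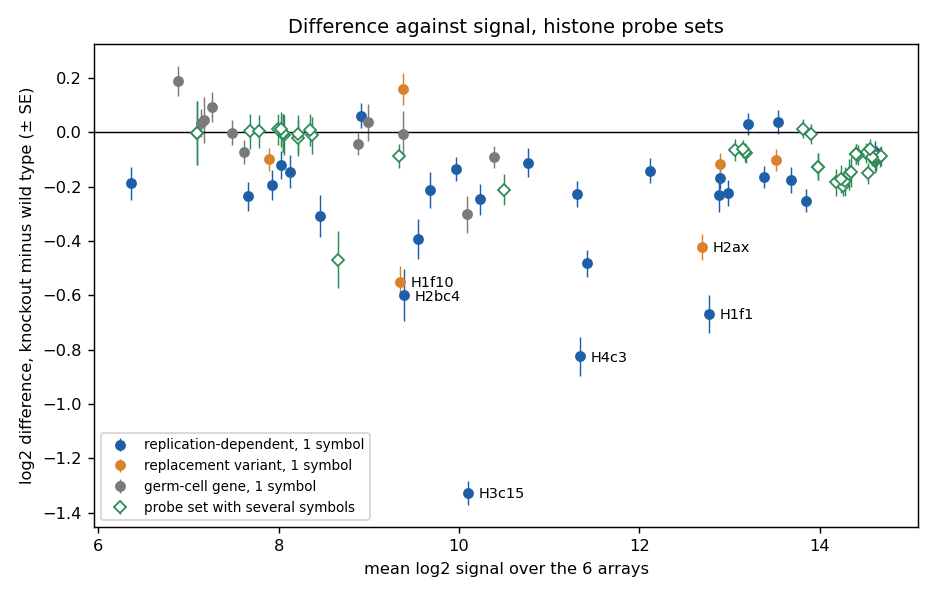
Log2 difference with its standard error against the mean log2 signal over the 6 arrays, for the 45 single-symbol histone genes (circles, by kind) and the 47 probe sets with several symbols (diamonds). The brightest shared probe sets, above 14, lie between −0.20 and −0.06, and H3c15 lies apart at −1.33.

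Genes that act with histones were read from lists that do not include the members. Of 28 measured histone chaperones, which carry histones to DNA, 9 (32.1%) fell and 0 rose, with a median of −0.095. Over all genes 10.2% fell, 9.66% rose and the median was 0.002. Tonsl, which reads newly deposited H4 at replication forks, fell by 0.42, and its partner Mms22l fell by 0.32. Nap1l1, a chaperone of H2A and H2B, fell by 0.36. The H3 and H4 chaperones Nasp and Asf1b fell by 0.27 and 0.23, and Asf1b read 13.59, 13.55 and 13.57 in wild type and 13.36, 13.33 and 13.32 in knockout. Chaf1a, a subunit of the assembly factor CAF-1, was not called (−0.14 ± 0.044).

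Of 13 genes for transcription of histone genes, 5 (38.5%) fell and 1 rose, beside 10.2% and 9.66% of all genes. Casp8ap2, a component of the histone locus body, fell by 0.32, E2f1 by 0.36 and the cyclin gene Ccne1 by 0.23. Hinfp, which encodes a factor that binds H4 promoters, rose from 10.3, 10.29 and 10.24 to 10.5, 10.46 and 10.53. Npat, the coactivator that cyclin E and CDK2 switch on, was not called (−0.10 ± 0.050). For 3′ end processing and decay of histone mRNA, 2 of 26 fell and 0 rose, with a median of −0.022. That share (7.69%) is under the 10.2% of all genes that fell. Slbp, which encodes the protein that binds the stem-loop, fell by 0.21, from 12.27, 12.23 and 12.28 to 11.99, 12.07 and 12.08. Coil, a Cajal body scaffold gene, fell by 0.21 as well.

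S phase genes moved alongside. Of 41 measured, 29 (70.7%) fell and 0 rose, 39 lay below 0, and the median was −0.21. Over all genes 10.2% fell, 9.66% rose and 49.2% lay below 0. Ung, a DNA repair glycosylase gene, fell by 0.52, while Gins1 fell by 0.40 and the licensing gene Cdt1 likewise by 0.40. Slbp, E2f1, Ccne1 and Ccne2, which fell by 0.18, are in this list as well as in the lists above. The median shift of the S phase list was −0.22, −0.21 and −0.18 on the knockout arrays, beside −0.16, −0.21 and −0.22 for the replication-dependent histone genes. The part of the S phase shift in the histone values was not tested.

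**Figure D4:**
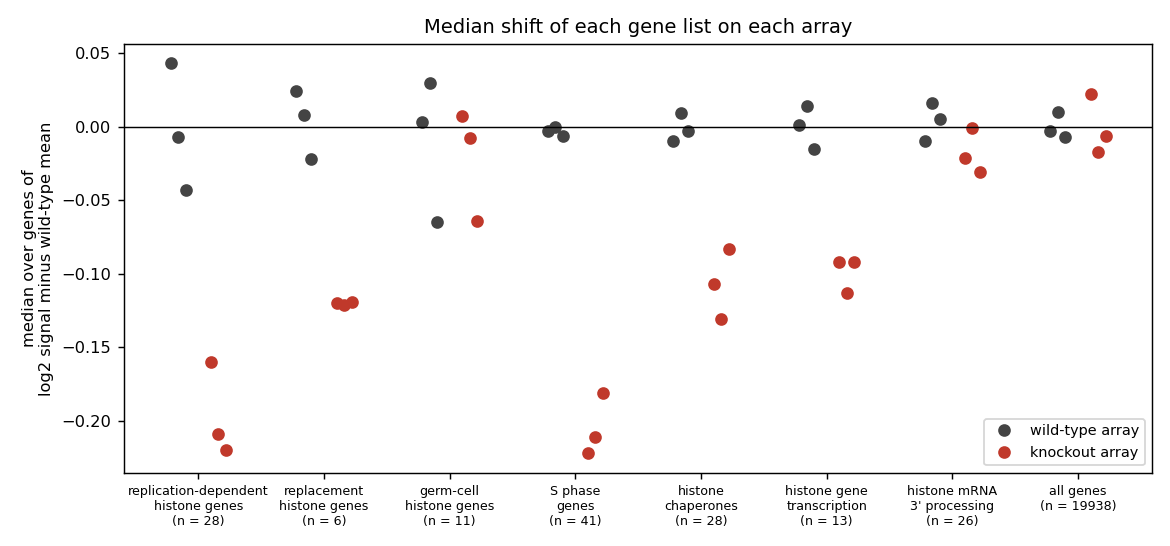
For each gene list, the median over its genes of log2 signal minus the wild-type mean, with 1 point per array (3 wild-type, 3 knockout). The knockout arrays lie between −0.22 and −0.16 for replication-dependent histone genes and between −0.22 and −0.18 for S phase genes, and between −0.064 and 0.007 for germ-cell histone genes.

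Some histone variants have names outside the symbol rule, and none of the 5 measured was called. The macroH2A gene Macroh2a1, whose product carries a large extra domain, had a log2 difference of 0.12 ± 0.045. All its knockout values lay above all its wild-type values. Macroh2a2 had one of 0.07 ± 0.087, Macroh2a3 one of −0.01 ± 0.051 and the spermatid linker gene Hils1 one of 0.06 ± 0.052. Cenpa, the H3 variant gene of centromeres, had a difference of −0.03 ± 0.042.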

How the data were processed

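The authors deposited log2 signals of each array by probe set, a scale inferred from their range. RMA and Partek 6.5 are named per the submitters' processing notes, without settings. No further normalization was applied. Of 35556 probe sets, 21789 had 1 gene symbol, 1621 several and 12146 none. The brightest probe set stood for a gene with several, which left 19938 genes. All 45 members matched the reference gene table of GRCm38.p6, with the same symbols. The genotypes were compared by limma 3.58.1 under R 4.3.3 (lmFit, eBayes, genotype as the only term, 6 arrays). P-values were Benjamini-Hochberg adjusted over all genes. The fit was tested on simulated data. Alternatives were another normalization and centring, filters on dim genes, other probe set rules, other moderation, the replicate block and leaving out each array.

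For arrays their number limits the precision: the median SE of a log2 difference was 0.051. The members and lists were chosen with earlier results of these data known. Named genes were Dusp6, all replacement and linker variants outside the clusters, the 10 largest called differences in each direction among cluster genes, the brightest cluster member of each class, and from each further list the 3 called genes of largest difference per direction, or, with no call, the pair of smallest p; other members were named to account for all of them, and further list genes after their values were seen. In the lists without a call these were Epor (−0.09) and Alas2 (−0.07) for erythroid and Vcam1 (0.11) and Col3a1 (0.05) for stromal cells. The split by kind and the comparison with genes inside the chromosome 13 cluster were added after the data were seen. Over all genes, same-numbered arrays did not deviate together (correlations 0.0098, −0.12 and 0.053), and the numbers were not taken as pairs in the main fit. Among the histone genes, replicate 1 was most often the highest array in both genotypes, and no such correlation was computed for them.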

Additional observations from a re-analysis of the deposited data

How the results depend on the processing

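The number of histone genes that fell was 20 to 27 under repeated quantile normalization, median centring, either filter on dim genes, the mean of a gene's probe sets, trend and robust options, the replicate block (21) and added probe sets of several histone symbols (27), and 19 without germ-cell genes, an alternative added after the data were seen. Leaving out 1 array gave 12 to 20, with 12 without wild-type replicate 1. The single rise, H2al3, was a count of 0 without genes below the lower quartile of signal, with trend and robust options, with the replicate block and without germ-cell genes, and 0 to 1 with 1 array left out. Without genes below the median signal the count was 1, but H2al3 was left out there and the gene that rose was H2aj. The median difference of −0.15 was −0.10 with the added probe sets and −0.19 without germ-cell genes, and −0.17 to −0.14 with 1 array left out. Of the 21 genes named by rule, 14 were called (19.8% of all genes were), and 9 to 14 with 1 array left out. The rule picks some cluster genes by their call, so the count of 14 is partly fixed by that choice. Calls over all genes numbered 3954, or 3003 to 4600 across settings, with 3445 under the replicate block. Of the 20 that fell, 12 kept the call in all 6 fits that left out 1 array. Dusp6 stayed between −3.40 and −3.33. The labels do not say whether arrays of the same number belong together. The replicate block kept 19 of the 20 calls, all but H1f5.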
